A study of Mus musculus with 15 samples.

Results

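The lysosomal cathepsins described here are 10 protease genes of the mouse, chosen by gene symbol wherever a deposited table listed them: Ctsa, Ctsb, Ctsc, Ctsd, Ctse, Ctsh, Ctsk, Ctsl, Ctss and Ctsz. They were 10 of the 28269 genes named in any table. The libraries profiled RNA from uterine epithelium on day 4, with 3 libraries in each of 5 groups. Epithelium of the uterine lumen (LE) and of the uterine glands (GE) came from wild-type mice and from Notch1-overexpressing mice named E-OEX. A second set of Notch1-overexpressing mice, named U-OEx, gave LE alone. The names E-OEX and U-OEx are not spelled out in the labels, and the promoter or recombinase behind either line, the age of the animals and the number of animals per library are not given in the sources used here. Nothing states that the 3 libraries of a group came from separate animals, so the p-values measure only the spread between these libraries.

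Cathepsins are proteases of the endosome and lysosome. They are made as inactive precursors, carried to the lysosome by mannose 6-phosphate receptors and related sorting proteins, and activated there at acidic pH. The 10 genes fall into 3 catalytic classes. Ctsd and Ctse encode aspartic proteases, Ctsa encodes a serine carboxypeptidase that also protects lysosomal glycosidases, and the other 7 encode cysteine proteases, which cystatins inhibit. In the uterus, cathepsins are known from the epithelium, the decidua and the macrophages that enter the tissue, and their abundance there is regulated by ovarian steroids.

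The tables did not list the same genes. Ctsd, Ctse, Ctsk and Ctss were listed in all of them, Ctsc in the wild-type and U-OEx tables, and Ctsa, Ctsb, Ctsh, Ctsl and Ctsz in the U-OEx tables alone. The wild-type tables (6414 genes) and the E-OEX tables (4903 genes) held genes with a difference of at least 1 on the log2 scale between GE and LE, apart from 1 E-OEX gene marginally under it. A cathepsin listed there therefore differed between the epithelia by selection, and that difference is described below without a test. The U-OEx tables listed 27946 genes. The 10 genes were also chosen with earlier results of these data in view, so their counts and adjusted p-values are descriptions of the members and not independent evidence.

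Values are scaled read counts, given for replicates 1, 2 and 3 in that order and as mean ± SD with n = 3. Each genotype's tables carry their own scaling, so deposited levels set side by side across genotypes are approximate. Differences between genotypes come from reads rescaled together, and a log2 difference is on the log2(value + 1) scale. Reads in listed genes ranged from 1980800 in an E-OEX LE library to 14981505 in a U-OEx LE library, and for wild type and E-OEX they are sums over the selected lists. The LE libraries of U-OEx carried all 6 epithelial markers examined, among them the keratin gene Krt8 at 11833 to 15982. The summed luminal markers were 14363 to 15726 in wild-type LE and 636 to 804 in wild-type GE. Deposited epithelial sums were lower in wild-type GE than in LE (14856 to 15832 against 46881 to 55058). Stromal sums (35483 to 101302 against 408 to 7900) and smooth muscle sums (2596 to 4669 against 81.6 to 230) were higher in GE. Endothelial sums were too (1940 to 3268 against 43.5 to 169), and E-OEX had the same directions. The part of these markers in any difference between GE and LE was not tested. The glandular markers Spink1, Prss29 and Ttr were at 0 in all 3 U-OEx LE libraries, and Spink1 and Calca in all 3 E-OEX LE libraries. In contrast, Foxa2, Lif, Cxcl15 and Sox9 had deposited means of 530, 591, 122 and 645 in U-OEx LE. Their means were 174, 234, 30.7 and 388 in E-OEX LE and 10.3, 38.8, 7.36 and 136 in wild-type LE. Calca was at 0.947 in U-OEx LE and 3.79 in wild-type LE. Libraries varied within their groups, in wild type as well as in E-OEX. Between wild-type LE replicates 1 and 2 the chi-square per degree of freedom was 182, the highest of any pair. Wild-type LE replicate 3 had 70.1 and 73.3 against the others. The deposited stromal sum of wild-type LE was 408, 7900 and 2527 in replicates 1, 2 and 3. Over all listed genes, the chi-square per degree of freedom between E-OEX LE replicate 3 and the others was 174 and 160, against 107 between replicates 1 and 2, and between E-OEX GE replicate 1 and the others it was 77.2 and 66.7, against 37.7. The rescaled luminal sum of E-OEX GE was 8246 in replicate 1 and 1499 and 1262 in the others, and the glandular sum of E-OEX LE was 1484 in replicate 1, 558 in replicate 2 and 174 in replicate 3. Values without these libraries are given where a result rests on them. In bulk RNA, fewer cells of a type and less RNA per cell cannot be told apart.

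Stretches upstream of the start sites of Ctsd, Ctsa, Ctsl and Ctss are shown here. The letters recognised by known regulators of lysosomal and interferon-responsive genes could be looked for in them. The 250 bases before the RefSeq start were searched on both strands, and 7 of the 10 genes had an entry. Ctsb, Ctse and Ctsh had none and were not searched. The motifs were chosen with the sequences and results in view. CACGTG, the palindrome bound by the TFEB and MITF family of lysosomal regulators, was found in Ctsd, Ctsa and Ctsl, and in 6.02% of all 32851 promoters in the table. Its longer form TCACGTGA, which contains it, was found in Ctsd and Ctsa and in 0.785% of promoters. The 4 matches follow within 30 bases each (RefSeq, build GRCm38.p6), with CACGTG in capitals. The match 98 bases before the RefSeq start of Ctsd lies in the 5′ untranslated region of a longer Ctsd transcript in GENCODE M21. The Ctsa and Ctsl matches also lie within the genes as annotated there (chr2:164832873-164841032 and chr13:64359337-64370890). Ctsa has another RefSeq entry, with the window chr2:164832622-164832871 directly before the annotated gene, and this window held 0 matches.
Ctsd, 245 bases before the start, chr7:142388048-142388077, minus strand: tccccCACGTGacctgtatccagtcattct
Ctsd, 98 bases before the start, chr7:142387908-142387937, minus strand: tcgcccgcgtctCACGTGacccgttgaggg
Ctsa, 12 bases before the start, chr2:164833743-164833772, plus strand: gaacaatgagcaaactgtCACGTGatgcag
Ctsl, 236 bases before the start, chr13:64370739-64370768, minus strand: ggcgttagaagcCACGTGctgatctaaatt

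For Ctss the whole window of 250 bases is given (RefSeq, GRCm38.p6, chr3:95526536-95526785, plus strand), with a match to GAAA, any 2 bases and GAAA in capitals. This paired GAAA is the pattern that interferon regulatory factors bind. It begins 21 bases before the start, was found in no other of the 7 genes and occurs in 2.98% of all promoters. GTGGGAA, the core bound by the Notch effector RBPJ (5.42% of promoters), and GGTCA, any 3 bases and TGACC, an oestrogen response element (0.0639% of promoters), were found in 0 of the 7 genes. A match describes the letters only, and a missing match says only that these letters are not in this window.
Ctss: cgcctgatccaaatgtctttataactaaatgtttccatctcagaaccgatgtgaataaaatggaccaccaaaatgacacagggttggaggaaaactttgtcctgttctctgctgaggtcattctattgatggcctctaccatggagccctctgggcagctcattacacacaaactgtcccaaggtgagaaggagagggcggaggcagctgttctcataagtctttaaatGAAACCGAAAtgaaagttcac

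Ctsd, the main aspartic protease of the lysosome, held more reads than any other listed gene of wild-type luminal epithelium and fell in the LE of both Notch1-overexpressing lines. The gene lies at chr7:142375911-142388038 on the minus strand (GRCm38, GENCODE M21). Its scaled read counts in wild-type LE were 193742, 247764 and 251166, a mean of 230891 ± 32216. It held the first rank by reads among the 6414 listed genes in each of these 3 libraries and took 4.64% ± 0.652 of their listed reads. In wild-type GE it was 12286, 9626 and 9204 (10372 ± 1671). The LE and GE libraries did not overlap, and the LE mean was 22.3-fold the GE mean. The GE libraries also had the lower epithelial and higher stromal sums given above, whose part in this ratio was not tested.

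In E-OEX LE the Ctsd counts were 22997, 9872 and 83581, a mean of 38817 ± 39319. The 3 libraries were widely spread, and replicate 3 was far above the others, but all were below every wild-type LE library. In E-OEX GE they were 5696, 14387 and 9443 (9842 ± 4359), so that LE and GE overlapped within E-OEX and the LE mean was 3.94-fold the GE mean. In U-OEx LE the counts were 4784, 3603 and 4619 (4335 ± 639), the lowest of any group on the deposited scale. There Ctsd ranked between 358 and 541 of 27946 listed genes.

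On the scale shared by all 15 libraries (2819 genes), Ctsd was ordered wild-type LE, E-OEX LE, wild-type GE, E-OEX GE and U-OEx LE, from high to low. Wild-type LE was 7.54-fold above E-OEX LE and E-OEX LE 4.92-fold above wild-type GE, with no overlap at either step. The last 3 groups overlapped with their neighbours. The Ctsd level of U-OEx luminal epithelium thus did not differ from that of E-OEX glands beyond their spread.

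**Figure D1:**
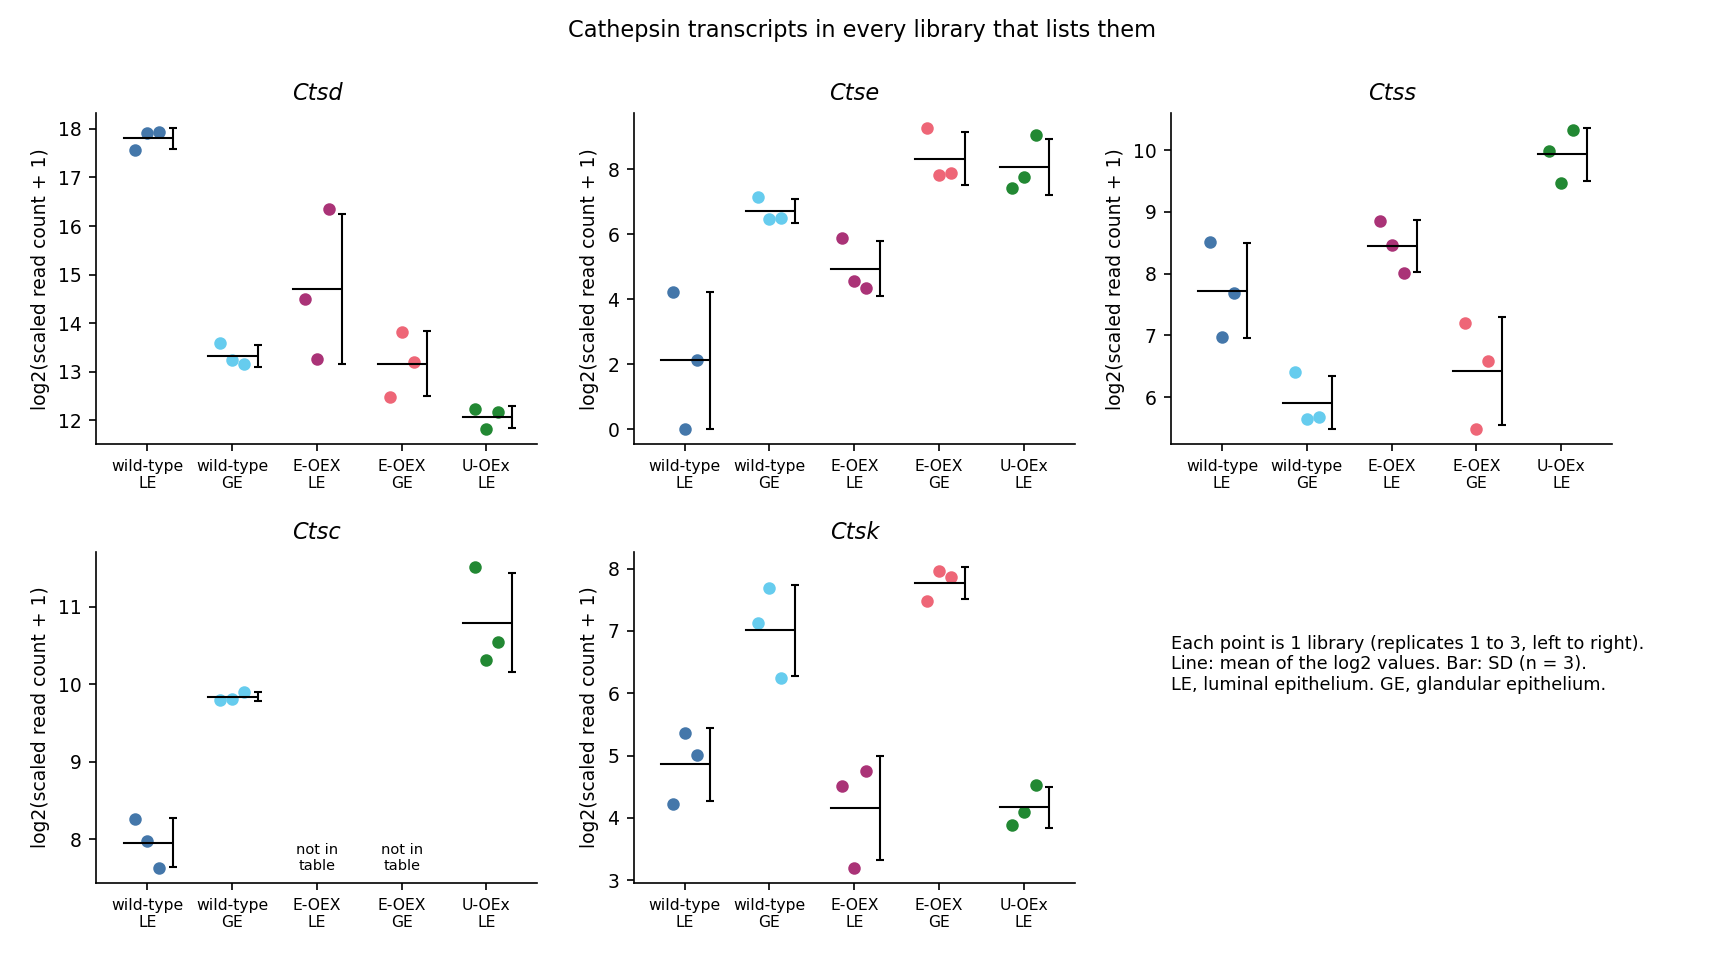
Log2(scaled read count + 1) of the 5 cathepsins listed outside the U-OEx tables, by group, on the deposited scale, with each genotype scaled on its own. Each point is 1 library, the line is the mean of the log2 values and the bar is the SD (n = 3). Ctsd is highest in wild-type LE and lowest in U-OEx LE, Ctse, Ctss and Ctsc are higher in U-OEx LE than in wild-type LE, and Ctsk is high in GE.

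After rescaling, Ctsd had 19517, 9987 and 78967 reads in E-OEX LE against 218404, 235950 and 271830 in wild-type LE. Its log2 difference was -3.28, with an SE of 0.69 (limma adjusted p = 0.0185). It was the 1 cathepsin called of 4 tested, where 5.54% of all 2600 genes tested were called lower and 5.12% higher. Without E-OEX LE replicate 3 the log2 difference was -3.95 (limma adjusted p = 0.00203). The call was lost without wild-type LE replicate 2 (limma adjusted p = 0.0551) or 3 (limma adjusted p = 0.0873) and without E-OEX LE replicate 1 (limma adjusted p = 0.0987) or 2 (limma adjusted p = 0.067), with a log2 difference of -2.62 without E-OEX LE replicate 2. It was also lost with no filter on low values (limma adjusted p = 0.104) and under quantile normalization, which gave -1.51 (limma adjusted p = 0.118).

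In U-OEx LE against wild-type LE, Ctsd was lower by -5.76 on the log2 scale (SE 0.20, limma adjusted p = 2.6e-06), a 53.7-fold difference of the rescaled means. In the direct comparison of the lines, U-OEx LE was below E-OEX LE by -2.77 (SE 0.65, limma adjusted p = 0.027). That value was -1.93 without E-OEX LE replicate 3 (limma adjusted p = 0.0232). The call was lost when U-OEx LE replicate 1, 2 or 3 was left out (limma adjusted p = 0.106, 0.0915 and 0.114).

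In glandular epithelium Ctsd differed between E-OEX and wild type by -0.63 (SE 0.32, limma adjusted p = 0.195), and the groups overlapped. The genotype difference in GE exceeded that in LE by 2.68 on the log2 scale (interaction in limma, SE 0.74, adjusted p = 0.039). This was the 1 cathepsin of 4 called, where 4.02% of 2933 genes had a positive call and 5.15% a negative one. All 2933 genes were listed through their difference between GE and LE in both genotypes. The interaction compares those same differences, so its p-values and shares are descriptions of selected genes. Of the 12 fits that left out 1 library, the Ctsd interaction stayed past the threshold without wild-type LE replicate 1, E-OEX LE replicate 3 or E-OEX GE replicate 1, and in the other 9 the limma adjusted p was 0.0682 to 0.0977. Its value was 2.05 without E-OEX LE replicate 2 and 3.35 without E-OEX LE replicate 3. The interactions of Ctse (-1.74), Ctsk (1.22) and Ctss (-0.46) were not called, with limma adjusted p = 0.518, 0.415 and 0.806. Ctsd shares exonic bases with the predicted gene Gm49369 on the same strand, so that the authors' counting could have split reads between them.

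**Figure D2:**
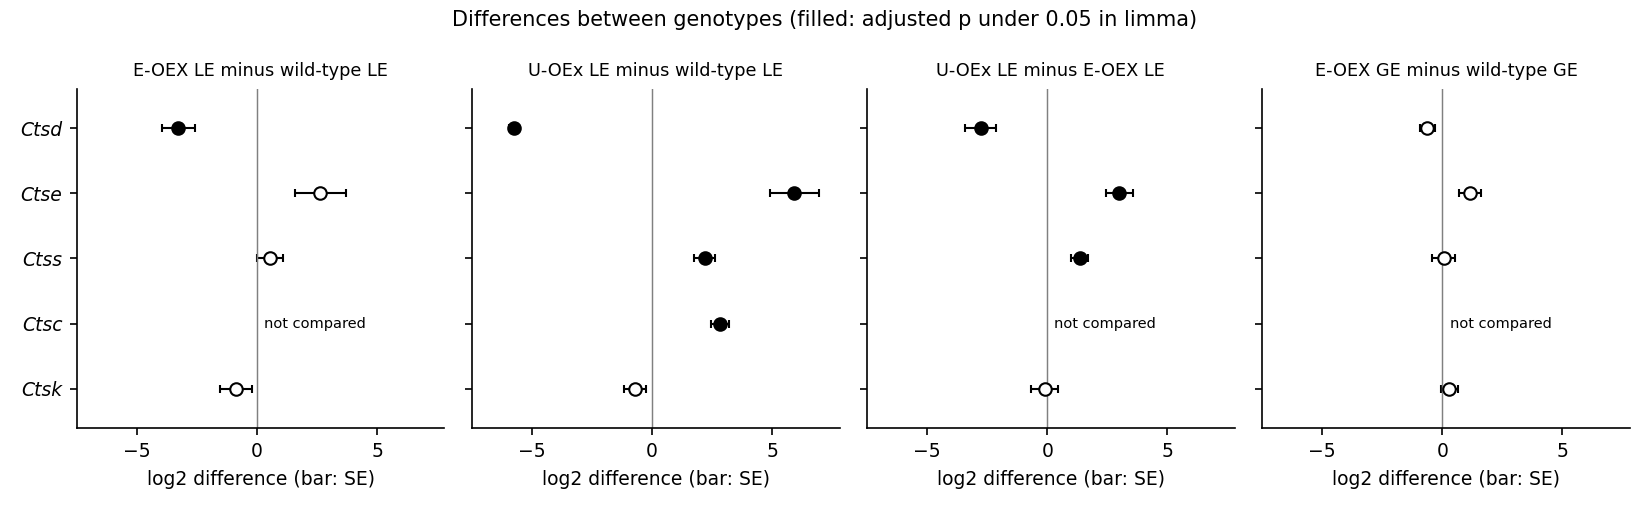
Log2 differences between genotypes of the 5 cathepsins that could be compared, 1 panel per comparison, with bars for the SE and filled points for a limma adjusted p under 0.05. In U-OEx LE against wild-type LE, Ctsd lies at -5.76 and Ctse at 5.92, while in E-OEX GE against wild-type GE all 4 points are open.

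Ctse, the second aspartic protease, is known mainly from immune cells and the linings of the gut and airways, where it resides in endosomes. It was scarce in wild-type luminal epithelium and higher in U-OEx LE. The gene lies at chr1:131638306-131675505 on the plus strand. Its scaled counts in wild-type LE were 17.6, 0 and 3.4, from 17 reads at most. Those in wild-type GE were 139, 88.2 and 90.0, so that the GE mean was 15.1-fold the LE mean with no overlap.

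The overexpressing lines showed higher Ctse values. E-OEX LE had 58.4, 22.7 and 19.4, and E-OEX GE had 612, 226 and 232, with a GE mean 10.6-fold the LE mean. U-OEx LE had 170, 213 and 528 (304 ± 196). On the common scale the order was U-OEx LE, E-OEX GE, wild-type GE, E-OEX LE and wild-type LE, and only E-OEX GE and wild-type GE were neighbours without overlap. Ctsd and Ctse, the 2 aspartic cathepsins, thus stood at opposite ends of the range in U-OEx LE and in wild-type LE.

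Against wild-type LE, Ctse was higher in U-OEx LE by 5.92 on the log2 scale (SE 1.02, limma adjusted p = 0.0016), a 39.9-fold difference of the rescaled means. The size rests on few wild-type reads: it was 7.05 without wild-type LE replicate 1 and 4.84 without wild-type LE replicate 2, still past the threshold in both (limma adjusted p = 0.000295 and 0.00251). U-OEx LE exceeded E-OEX LE by 3.01 (SE 0.55, limma adjusted p = 0.0126), but not past the threshold without U-OEx LE replicate 1 (limma adjusted p = 0.0544) or 3 (limma adjusted p = 0.0662). E-OEX LE differed from wild-type LE by 2.64 (SE 1.06, limma adjusted p = 0.151), and without wild-type LE replicate 1 by 3.76 (limma adjusted p = 0.0285).

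In GE, Ctse differed between E-OEX and wild type by 1.15 on the log2 scale (SE 0.45, limma adjusted p = 0.0961), although the 3 E-OEX GE libraries lay above the 3 wild-type GE libraries. Without E-OEX GE replicate 1, which also had the high luminal sum, it was 0.62 (limma adjusted p = 0.171). None of the 4 cathepsins tested in GE was called by limma on the common scale, where 9.72% of 2851 genes were called higher and 13.8% lower (1008 genes had an unadjusted p under 0.05). Ctse was called by DESeq2 (adjusted p = 0.0254), not by edgeR, and on the deposited scale (limma adjusted p = 0.0192). Ctsd was called lower without E-OEX GE replicate 2, at -0.97 (limma adjusted p = 0.0294). Labelled GE libraries of E-OEX had lower glandular marker sums than those of wild type (6063 to 7777 against 28669 to 40832 rescaled reads, 7 of 9 markers listed). The fall was not shared by all: Spink1, Ttr, Calca, Lif and Cxcl15 were called lower, 5 of the 7 tested. Foxa2 (-0.53, limma adjusted p = 0.0982) and Sox9 (-0.50, limma adjusted p = 0.211) were not called. Smooth muscle sums were higher in the E-OEX libraries (10471 to 15549 against 3226 to 5707, 4 of 5 listed). The part of these markers in the cathepsin values was not tested.

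Ctss encodes a cysteine protease of antigen-presenting cells that cleaves the invariant chain of class II molecules and remains active at neutral pH. It was lower in glands than in lumen and rose in U-OEx LE. The gene lies at chr3:95526786-95556403 on the plus strand, behind the promoter window shown above. Its scaled counts were 366, 125 and 204 in wild-type LE and 83.7, 49.3 and 50.2 in wild-type GE. They were 461, 353 and 258 in E-OEX LE and 146, 43.7 and 94.6 in E-OEX GE. LE was above GE without overlap in both genotypes, by 3.80-fold in wild type and 3.77-fold in E-OEX. The 6 leukocyte markers listed in wild type were divided. Mean deposited values of Laptm5 (675 and 134), Cd68 (239 and 61.0) and Cx3cr1 (33.0 and 11.1) were higher in LE than in GE, as for Ctss, whereas Lyz2 (563 and 2958), Mrc1 (3.14 and 116) and Adgre1 (21.2 and 58.0) were higher in GE. In E-OEX 5 of the 16 markers were listed. Cd68 (224 and 91.3), Itgam (94.6 and 19.9), Aif1 (53.0 and 15.8) and Cx3cr1 (46.3 and 20.6) were higher in LE, and Mrc1 (1.27 and 70.9) in GE. The part of leukocyte RNA in the Ctss difference between LE and GE was not tested.

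U-OEx LE had Ctss counts of 1018, 710 and 1278, above every other library. On the common scale U-OEx LE was 2.89-fold above E-OEX LE without overlap, while E-OEX LE and wild-type LE overlapped. The log2 difference from wild-type LE was 2.18 (SE 0.45, limma adjusted p = 0.00412) and that from E-OEX LE was 1.35 (SE 0.35, limma adjusted p = 0.0358). The latter was not past the threshold without E-OEX LE replicate 2 or 3 (limma adjusted p = 0.0667 and 0.0691) or without U-OEx LE replicate 1 or 3 (limma adjusted p = 0.145 and 0.137). Between E-OEX and wild type, Ctss differed by 0.55 in LE (SE 0.54, limma adjusted p = 0.557) and by 0.05 in GE (SE 0.47, limma adjusted p = 0.957).

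Ctsc encodes dipeptidyl peptidase I, the enzyme that activates the serine proteases of granulocytes, mast cells and cytotoxic lymphocytes. It rose in U-OEx LE and could not be compared in E-OEX. The gene lies at chr7:88278085-88310888 on the plus strand. Its scaled counts were 307, 250 and 197 in wild-type LE, 891, 900 and 957 in wild-type GE, and 2932, 1273 and 1501 in U-OEx LE. The 3 groups did not overlap on the scale shared by wild type and U-OEx (6204 genes), with U-OEx LE 2.39-fold above wild-type GE and wild-type GE 3.47-fold above wild-type LE. The log2 difference of U-OEx LE from wild-type LE was 2.82 (SE 0.38, limma adjusted p = 0.000427).

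Of the 5 cathepsins tested between U-OEx LE and wild-type LE, 3 were called higher (Ctse, Ctsc and Ctss) and 1 lower (Ctsd). In the same comparison 29.1% of all 5949 genes tested were called higher and 27.8% lower, so that calls were frequent throughout. Between U-OEx LE and E-OEX LE, 2 of 4 were called higher and 1 lower, against 6.97% and 8.05% of 4275 genes. The median log2 difference of all genes was 0.09 in the first comparison and 0.06 in the second. The median of the tested cathepsins was 2.18 in the first and 0.62 in the second. Both comparisons used the same U-OEx libraries.

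Leukocyte markers were also higher in U-OEx LE. The rescaled sum of the 6 of 16 macrophage and leukocyte markers listed in both tables was 3885, 2692 and 4546 in U-OEx LE and 2418, 1175 and 1202 in wild-type LE. Adgre1, Laptm5 and Lyz2 were called higher, and Cd68, Cx3cr1 and Mrc1 were not. Against E-OEX LE the sum over 5 listed markers was 1065 to 1809 in U-OEx LE and 374 to 554 in E-OEX LE. Replicate 3 had the highest and replicate 2 the lowest value of the 3 U-OEx libraries for both Ctss and the leukocyte sum. Ctsc and Ctse followed that order in part. Ctsc was also lowest in replicate 2 but highest in replicate 1, and Ctse was also highest in replicate 3 but lowest in replicate 1. Over all 16 markers, which only the U-OEx tables list in full, the deposited sum was 10578 to 20827, and the pan-leukocyte gene Ptprc was 1570, 441 and 2705. The part of leukocyte RNA in the Ctss, Ctsc and Ctse values was not tested.

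Epithelial and luminal markers moved in U-OEx LE too. The rescaled sum over 3 of 6 listed epithelial markers was 28116 to 41116 in U-OEx LE and 46020 to 61522 in wild-type LE, without overlap. Cdh1 (-1.5) and Epcam (-0.74) were called lower, and Krt19 was not called. These calls depended on the scaling: quantile normalization gave 0 lower and 1 higher of the 3, with a median of 0.34 in place of -0.74. Of the 5 luminal markers, Lpar3 (-4.70) and Wnt7a (-1.07) were called lower and Ltf (6.89) and Wnt7b (2.25) higher. With quantile normalization 3 luminal markers were called higher and 1 lower. The part of these markers in the cathepsin values was not tested.

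Glandular markers moved in U-OEx LE as well. The rescaled sum over 8 of 9 listed markers was 1499 to 2319 in U-OEx LE and 132 to 326 in wild-type LE, with Foxa2, Lif, Cxcl15 and Sox9 called higher and Spink1 called lower. The wild-type difference between GE and LE is set here beside the U-OEx difference for each cathepsin. Ctse and Ctsc were higher in wild-type GE than LE and rose in U-OEx LE, and Ctsd was lower in GE and fell. Ctss was lower in GE and rose, and Ctsk was higher in GE and had a log2 difference of -0.72 in U-OEx LE that was not called. Spink1, Prss29 and Ttr, with deposited means of 10548, 12151 and 1351 in wild-type GE, were at 0 in the U-OEx libraries. The part of glandular RNA in the cathepsin values was not tested.

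Ctsk encodes a collagen-degrading cysteine protease best known from osteoclasts and also made by fibroblasts. It was a gene of the glandular libraries and did not pass the test between genotypes in any comparison. The gene lies at chr3:95499256-95509362 on the plus strand, 17423 bases before Ctss on the same strand. Its scaled counts were 17.6, 39.9 and 31.3 in wild-type LE and 138, 205 and 74.4 in wild-type GE, a GE mean 4.70-fold the LE mean. They were 21.9, 8.2 and 25.9 in E-OEX LE and 178, 249 and 232 in E-OEX GE, a GE mean 11.8-fold the LE mean. Neither pair overlapped.

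In U-OEx LE, Ctsk was 13.8, 16.0 and 22.1, and it overlapped both other LE groups on the common scale. The log2 differences were -0.87 (SE 0.68) for E-OEX LE and -0.72 (SE 0.47) for U-OEx LE against wild-type LE, with limma adjusted p = 0.446 and 0.222. In GE the difference between E-OEX and wild type was 0.30 (SE 0.36, limma adjusted p = 0.618). The neighbours Ctsk and Ctss therefore differed in pattern, Ctsk being higher in GE and Ctss higher in LE.

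Stromal markers moved with Ctsk between the epithelia. The deposited sum over 9 of 11 listed stromal markers was 408 to 7900 in wild-type LE and 35483 to 101302 in wild-type GE. Over all 11 it was 534 to 2782 in E-OEX LE and 81144 to 96992 in E-OEX GE, and none of the listed markers was at 0 in a group. Wild-type GE replicate 2 had the highest and replicate 3 the lowest value of both Ctsk and the stromal sum, and in wild-type LE replicate 2 was the highest and replicate 1 the lowest in both. In E-OEX LE the order differed: replicate 3 had the highest Ctsk and the lowest stromal sum (2782, 1250 and 534 in replicates 1, 2 and 3). The part of stromal RNA in the Ctsk values was not tested.

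Ctsa, Ctsb, Ctsh, Ctsl and Ctsz were analysed in U-OEx LE only, so that no genotype or tissue difference can be given for them. Ctsl, an endopeptidase of broad specificity, had scaled counts of 16344, 7565 and 9561, with replicate 1 well above the others. Ctsb, which acts both as an endopeptidase and as a peptidyl-dipeptidase, had 8951, 7707 and 7776. Ctsh, an aminopeptidase, had 3192, 3779 and 2751.

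Ctsa, whose product forms a complex with neuraminidase and beta-galactosidase, had 2506, 2493 and 2552, a mean of 2517 ± 31.1 and the narrowest spread of the 10 genes in this group relative to its mean. Ctsz, a carboxypeptidase also called cathepsin X, had 1374, 890 and 1265. Ctsa shares exonic bases with Neurl2 and Pltp, Ctsb with Fdft1 and Ctsz with Nelfcd, each on the opposite strand. Ctsl shares them with the antisense gene Gm47123 and the pseudogene Gm49230. Whether the counting used strand is not given, so reads of these partners cannot be told apart.

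Per base of annotated exon, Ctsd, Ctsl and Ctsb had the highest mean levels of the cathepsins in U-OEx LE. The level of Ctsd was 443 ± 44.3 TPM, a unit of reads per exon base scaled to the same total in each library, above 98.7% of the 19620 genes with at least 10 reads over the 3 libraries. Ctsl was at 410 ± 151 and Ctsb at 324 ± 17.8. The Ctsl libraries overlapped those of both, and in replicate 1 Ctsl (581) was above Ctsd (470). Ctsz (196 ± 33.1), Ctss (177 ± 45.3) and Ctsh (175 ± 35.9) formed a middle group with overlapping libraries, and Ctsa was at 129 ± 6.26.

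Ctsc was at 78.0 ± 33.4 and Ctse at 23.1 ± 14.6 TPM, with no overlap between them. Ctsk was the lowest of the 10 at 2.76 ± 0.688, above 26.7% of the detected genes. Ctse was above 63.6% of them, so its 5.92 log2 difference from wild type led to a moderate level. The lengths are those of all annotated exons of a gene, which understates the level of genes with many unused exons. They were 6489 bases for Ctsl, 6051 for Ctsb and 2351 for Ctsd, and the order of these genes rests on them. By mean scaled count, Ctsl (11157) and Ctsb (8145) were above Ctsd (4335).

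**Figure D3:**
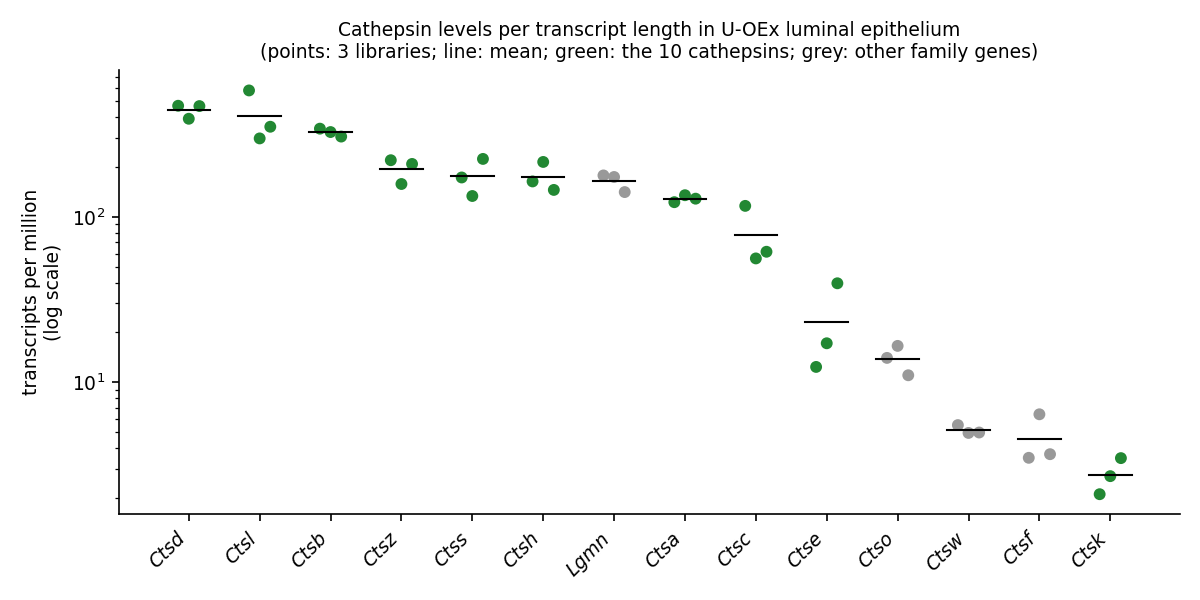
Level in TPM (log axis) of the 10 cathepsins (green) and of other family genes (grey) in U-OEx LE. Each point is 1 of 3 libraries and the line is the mean. Levels run from 443 for Ctsd to 2.76 for Ctsk, and the legumain gene Lgmn lies among the cathepsins at 164.

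Of the 13 other cathepsin and legumain genes in the comparison list, Ctsf alone was listed in every table. Ctsf, a cysteine protease, was 345 ± 39.5 in wild-type LE, 833 ± 23.7 in wild-type GE and 93.4 ± 28.4 in U-OEx LE. In E-OEX it was 192 ± 125 in LE and 509 ± 166 in GE. It fell in U-OEx LE against wild-type LE by 1.93 on the log2 scale (SE 0.31, limma adjusted p = 0.00106). In GE it was lower in E-OEX by -1.23 (SE 0.27, limma adjusted p = 0.00912), but not past the threshold on the deposited scale (-0.77, limma adjusted p = 0.0771), with every group fitted jointly (adjusted p = 0.0599 in limma) or without wild-type GE replicate 1 (limma adjusted p = 0.0676). Lgmn, an asparaginyl endopeptidase that processes other cathepsins, was analysed in U-OEx alone, at 1792, 1583 and 1378.

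The cystatins and related inhibitors, which block cysteine cathepsins, were mostly outside the compared lists. Cst3, the secreted cystatin C, was higher in U-OEx LE than in wild-type LE by 0.65 (SE 0.22, limma adjusted p = 0.0362), and the median-of-ratios scale left it short of the threshold. Ctla2a, which encodes a propeptide-like inhibitor of cysteine proteases, fell by 3.05 there (SE 1.03, limma adjusted p = 0.0346). Its deposited values were 8.29, 193 and 60.4 in wild-type LE and 7.35, 1.78 and 7.68 in U-OEx LE, so that the groups nearly touched. Ctla2a was 1788 ± 554 in wild-type GE. Its order over the wild-type LE replicates was that of their deposited stromal sum (408, 7900 and 2527 in replicates 1, 2 and 3). In E-OEX LE the order differed, with Ctla2a highest in replicate 2 and the stromal sum highest in replicate 1. The part of stromal RNA in the Ctla2a values was not tested. Cst7, which encodes cystatin F of immune cells, differed by 1.61 between U-OEx LE and E-OEX LE (SE 0.57, limma adjusted p = 0.0885). Cystatin B (Cstb), the intracellular inhibitor, was analysed in U-OEx LE only, at 670 ± 124.

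Of 13 genes that sort or process cathepsins and other lysosomal proteins, 4 were tested between U-OEx LE and wild-type LE, and 3 were called lower and 1 higher, beside 27.8% and 29.1% of all genes. Their median was -1.69, and under quantile normalization it was -1.0 with 2 called lower. Grn (-2.39), which encodes progranulin, a protein carried to the lysosome by sortilin, Scarb2 (-1.76), the receptor for glucocerebrosidase, and Sort1 (-1.61), sortilin itself, fell, Sort1 not past the threshold under quantile normalization. Gnptab, the subunit of the phosphotransferase that makes the mannose 6-phosphate tag, rose by 1.32. Grn was also lower in E-OEX LE than in wild-type LE at -1.51 (SE 0.42, limma adjusted p = 0.048) and in U-OEx LE than in E-OEX LE at -1.16 (SE 0.32, limma adjusted p = 0.0424). On the deposited scale and under quantile normalization none of the 3 sorting genes tested was called in either of these 2 comparisons.

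Lysosomal membrane and proton pump genes were lower where called. Of 39 genes in this list, 9 were tested between U-OEx LE and wild-type LE, and 6 were called lower and 0 higher, beside 27.8% and 29.1% of all genes. Their median log2 difference was -2.01, beside 0.09 for all genes. Mcoln2 (-4.83), a lysosomal cation channel, Npc1 (-2.58), the cholesterol transporter, and the proton pump genes Atp6v0d2 (-2.32) and Atp6ap2 (-2.16) changed the most. Under quantile normalization 5 were called lower and 1 higher. The lists hold genes that differ between the epithelia, and these 9 are not a sample of the organelle.

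Other lysosomal hydrolases were called in either direction about as often as all genes. Of 34 genes, 11 were tested and 4 were called higher and 4 lower, beside 29.1% and 27.8% of all genes. Their median was 0.16, which quantile normalization turned to -0.29 with 3 higher and 4 lower. Acp5 (2.85), tartrate-resistant acid phosphatase, and Arsb (2.53), arylsulfatase B, rose the most, and Ppt1 (-2.51), palmitoyl-protein thioesterase, and Lipa (-2.11), lysosomal acid lipase, fell the most. Acp5 was also higher in E-OEX LE than in wild-type LE at 2.15 (SE 0.47, limma adjusted p = 0.0201). In E-OEX GE against wild-type GE, Manba (-1.60), which encodes beta-mannosidase, and Ppt1 (-1.09) were called lower of 4 tested, and on the deposited scale 1 was called lower and 2 higher. Atp6v1c2, a proton pump subunit, was lower there at -3.67.

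**Figure D4:**
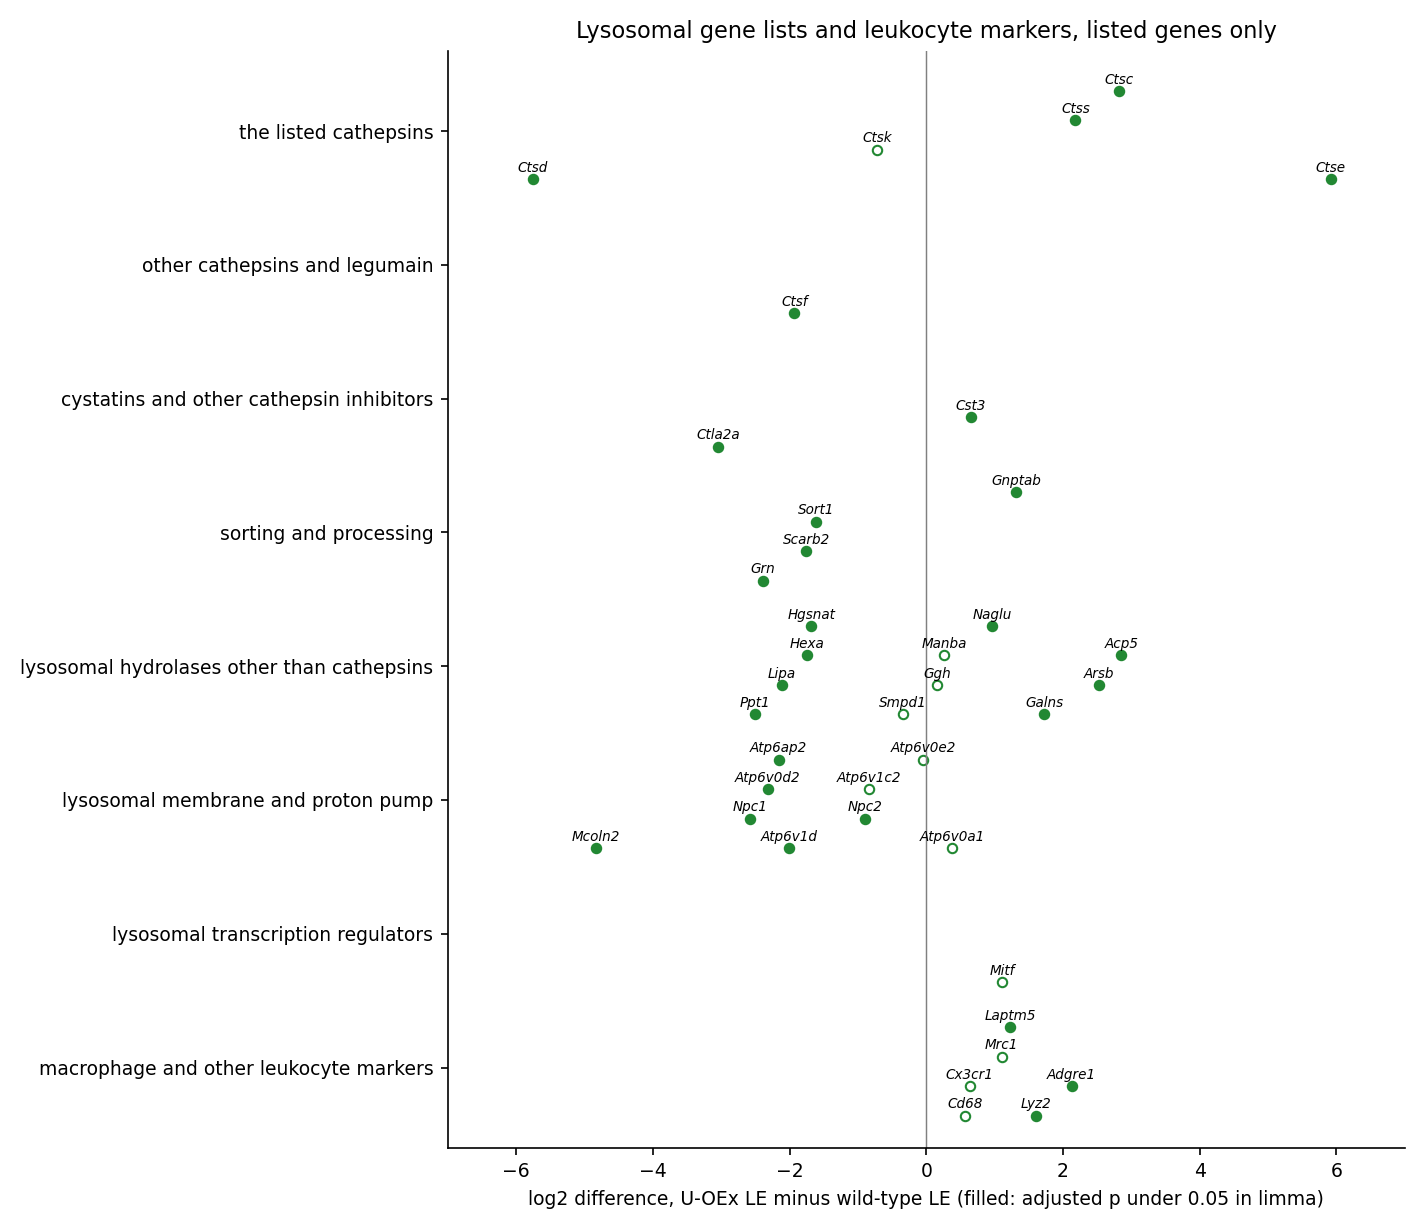
Log2 difference between U-OEx LE and wild-type LE for every gene of the cathepsin, inhibitor, sorting, hydrolase, membrane and regulator lists and of the leukocyte markers that both tables list, with filled points for a limma adjusted p under 0.05. The vertical position within a list only separates the names. Ctsd (-5.76) and Ctse (5.92) lie at the ends of the range, and the 6 called membrane and proton pump genes all lie below 0.

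Mitf, the member of the CACGTG-binding family listed in every table, did not pass the test in any of the 5 comparisons on the common scale. Its log2 difference was 2.58 for E-OEX LE against wild-type LE (SE 0.84, limma adjusted p = 0.0811) and 1.11 for U-OEx LE against wild-type LE (SE 0.78, limma adjusted p = 0.249). Between U-OEx LE and E-OEX LE it was -1.75 (SE 0.53, limma adjusted p = 0.0562), which quantile normalization brought past the threshold. Tfeb and Tfe3, analysed in U-OEx LE only, had deposited values of 239 ± 57.0 and 822 ± 122.

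The genes whose level followed each cathepsin most closely over the 15 libraries were found among 1283 genes with a mean of at least 100 rescaled reads. For Ctsd the closest was Rnf223 (Pearson r = 0.98). For Ctse the closest 2 were Irf8 (r = 0.94), a transcription factor of myeloid and B cells, and Hgfac (r = 0.90). For Ctsk they were Itih5 and Nid1 (both r = 0.96), the latter a basement membrane gene. For Ctss they were Asprv1 and Samd9l (both r = 0.97). The points share their group, table and library size, so these values are descriptions.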

How the data were processed

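Scaled read counts of 15 RNA-seq libraries were analysed. Per the labels' protocols, RNA was purified with an RNeasy kit and libraries were built with the NEBNext Ultra kit. The submitters' processing notes name the builds GRCm38 and mm10. The aligner, counter, strand setting and scaling method are not given in the sources used here. The values the authors deposited are a signal, read counts divided by 1 factor per library. Dividing by each library's smallest step gave whole reads, within 0.01, for 100% of values. No column of values was left unused.

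The 10 members and all gene lists were chosen with earlier results of these data known. Reads of genes listed in all tables compared were rescaled together with TMM (edgeR 4.0.16) and tested with limma 3.58.1 (R 4.3.3, lmFit and eBayes with trend) on log2(value + 1), for genes with a mean of at least 1, with Benjamini-Hochberg adjustment over all genes in each of 5 comparisons and a threshold of 0.05. Alternatives were the deposited scale, median-of-ratios factors, quantile normalization, edgeR, DESeq2 1.42.0, pseudocounts of 0.1 and 5, no filter, a mean of at least 10, 1 fit over all groups, a replicate block and leaving out each library. Scripts were tested on simulated data. Libraries of a group differed beyond counting noise (chi-square 16.6 to 182 per degree of freedom over 15 pairs). Named genes were all members, and up to 4 called genes of a list with the largest difference, any listed inhibitor or regulator, and the 2 genes most alike to each member. Other genes named from a list were chosen after their values were seen. A small number of genes that these rules would name or count are not reported here. Symbols and exon lengths came from GENCODE M21, promoter sequences from RefSeq.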

Additional observations from a re-analysis of the deposited data

Results flagged for a closer look

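In the main fit, the response of Ctsd to E-OEX differed between the epithelia. Its log2 difference from wild type was -3.28 in LE and -0.63 in GE, and the difference between these, tested as an interaction in limma, was 2.68 (SE 0.74, adjusted p = 0.039). All 3 E-OEX LE libraries were below all wild-type LE libraries, whereas the GE libraries of the genotypes overlapped. The interaction kept its sign in all 23 alternative fits but was past the threshold in 11 of them. Under quantile normalization the limma adjusted p was 0.31. The genes in this test were listed through their GE to LE differences, which the interaction compares, so its p-value is a description.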

How the results depend on the processing

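In U-OEx LE against wild-type LE, the 4 called cathepsins kept their direction and calls under all alternatives that could test them, with Ctsd between -5.86 and -4.70, and the 3 calls in 1 fit over all groups reflect that Ctsc is not listed in the E-OEX tables. The number of cathepsins called in E-OEX LE against wild-type LE was 1, but 0 under quantile normalization or with no filter, 2 in 1 fit over all groups, and 0 to 2 with 1 library left out. In E-OEX GE against wild-type GE it was 0, but 1 on the deposited scale and with DESeq2 (both Ctse), 1 with the replicate block (Ctse, adjusted p = 0.0184), and 0 to 1 with 1 library left out. In U-OEx LE against E-OEX LE it was 3, but 1 with no filter (Ctsd adjusted p = 0.0836, Ctss 0.0559) and 0 to 3 with 1 library left out, and the replicate block left Ctss at an adjusted p = 0.0564. For the interaction it was 1 (Ctsd), but 0 under quantile normalization (1.34, adjusted p = 0.31), with edgeR (adjusted p = 0.0652) and with a pseudocount of 0.1 (adjusted p = 0.0601), and 0 to 1 with 1 library left out. The cause of these changes was not tested. No called value changed sign.

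Counts over all genes ranged over the alternatives from 56 to 616 around 277 in the LE of E-OEX, from 285 to 789 around 670 in its GE, from 1274 to 3452 around 3384 in U-OEx LE against wild type, from 60 to 935 around 642 in U-OEx LE against E-OEX LE, and from 143 to 501 around 269 for the interaction. The deposited scale raised the share of higher calls to 71.6% (from 41.3%) in E-OEX GE, to 58.6% (from 48.0%) in E-OEX LE and to 54.3% (from 43.9%) for the interaction, where median-of-ratios factors gave 56.7%. On the deposited scale the median of all genes in E-OEX GE was 0.50 in place of 0.05. The labels state no pairing of libraries by replicate number, so the replicate block is given here only. Same-numbered libraries had correlations of their deviations between -0.28 and 0.19, which with 3 libraries per group cannot settle whether they were paired. Few reads limit Ctse and Ctsk in LE, and 3 libraries per group limit every test.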
